A study of Mus musculus with 25 samples.

Results

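The genes described here encode glutathione transferases (Gst), sulfotransferases (Sult), carboxylesterases (Ces) and cytochrome P450 enzymes of subfamilies Cyp2, Cyp3a and Cyp4. They were chosen by name, as every gene on the array whose symbol begins with Gst and a class letter, Sult, Ces, Cyp2, Cyp3a or Cyp4 and the number or letter that follows. The class letters taken were a, k, m, o, p and t, so Gstz1 was not a member. The array files name 129 such genes, and 98 of them passed the filter, a probe detected well above background on 3 or more of 25 arrays. These 98 stand among 25447 genes or unnamed probes that were tested. They comprise 18 of 19 named Gst genes, 10 of 17 Sult, 16 of 19 Ces, 37 of 46 Cyp2, 4 of 8 Cyp3a and 13 of 20 Cyp4. Of the 98, 71 were well above background on all 25 arrays and 19 on fewer than 13, and a gene that passed only through a group where it was bright had to differ between groups.

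Drug-metabolising enzymes work in sequence. Cytochrome P450 enzymes oxidise a foreign or endogenous compound and carboxylesterases split esters, after which transferases attach glutathione or sulfate so that the product can leave the cell. In the intestine these enzymes sit mainly in the absorptive epithelium, where they also act on eicosanoids, steroids and bile acids. Several of their genes are known targets of the aryl hydrocarbon receptor (AhR), of the oxidative stress factor Nrf2 and of nuclear receptors.

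Colon RNA of female C57BL/6J mice aged 8 weeks was hybridised to 25 one-colour arrays, 1 mouse per array. The mice were Card9-/-, lacking the adaptor that links lectin receptors for fungi to NF-κB, or wild type (WT). All drank 2% w/v dextran sulfate sodium (DSS), a polymer that damages the colon epithelium, except those taken at day 0, and DSS was given for 7 days before 5 days of plain water. The groups were Card9-/- at day 0 (3 arrays), day 7 (4 arrays) and day 12 (5 arrays), and WT at day 0 (3 arrays), day 7 (5 arrays) and day 12 (5 arrays). The colon was taken whole, and the design names 5 Card9-/- mice at day 7, of which 4 are analysed here. A level below is the log2 processed intensity of a probe minus the 75th percentile of its array, so levels compare arrays for the same probe and never different probes. The 75th percentile ranged from 196.1 to 661.3 intensity units, and 25893 to 37326 probes per array were well above background. Levels in whole colon cannot tell fewer cells of a type apart from less RNA per cell.

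Several arrays stood apart from their groups. The Card9 probe was brighter in the arrays labelled Card9-/- than in WT arrays at day 0, at least 11.4-fold (adjusted p = 0.00998), with 3 of 3 against 0 of 3 arrays well above background, and it was also brighter at day 7 and day 12. No label places this probe inside or outside the deleted part, so every direction between genotypes below rests on the labels. All 15 measured markers of colon epithelium were well above background in every group. The mean of 11 anterior Hox genes that mark proximal colon, relative to WT day 0, was 2.72 and 2.52 in replicates 1 and 2 labelled Card9-/- at day 0, 3.05 in WT day 7 replicate 1 and 1.61 in WT day 12 replicate 4. In the other 21 arrays it lay between -0.58 and 0.81. The mean of 13 pancreatic acinar markers was 13.82 and 14.17 in replicates 2 and 3 labelled Card9-/- at day 7, 13.17 in replicate 1 labelled Card9-/- at day 12 and 7.81 in WT day 12 replicate 5, against -0.96 to 2.39 elsewhere. The 25 arrays lay on 4 slides, each of which held several groups.

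The results turn mainly on the mu class glutathione transferases (Gstm), which lie in a cluster on chromosome 3, and on Sult1a1, Cyp2s1 and Cyp4f14. Because the Gstm genes moved together, the 250 bases before their transcription starts are shown for the 4 members of the family whose levels differed most over the 6 groups, and for the falling gene that differed most in each of Sult, Cyp2 and Cyp4. The sequences are from RefSeq (GRCm38.p6), read 5′ to 3′ on the strand of the gene, and capitals mark matches to GCGTG, the AhR core motif, to TGACNNNGC, the core of the antioxidant response element, and to AGGTCA, a nuclear receptor motif, on either strand.
The Gstm3 window is chr3:107969175-107969424, minus strand.
Gstm3: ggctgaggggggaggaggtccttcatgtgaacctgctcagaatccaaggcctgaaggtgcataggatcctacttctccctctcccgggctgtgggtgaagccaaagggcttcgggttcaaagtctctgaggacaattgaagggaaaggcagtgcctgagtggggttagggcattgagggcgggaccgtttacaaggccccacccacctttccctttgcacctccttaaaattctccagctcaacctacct
The Gstm4 window is chr3:108044860-108045109, minus strand.
Gstm4: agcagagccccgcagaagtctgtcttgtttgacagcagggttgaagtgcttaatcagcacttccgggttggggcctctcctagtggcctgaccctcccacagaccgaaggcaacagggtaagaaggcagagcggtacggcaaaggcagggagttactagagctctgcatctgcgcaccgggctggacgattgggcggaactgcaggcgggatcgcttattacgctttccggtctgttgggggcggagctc
The Gstm5 window is chr3:107895604-107895853, plus strand.
Gstm5: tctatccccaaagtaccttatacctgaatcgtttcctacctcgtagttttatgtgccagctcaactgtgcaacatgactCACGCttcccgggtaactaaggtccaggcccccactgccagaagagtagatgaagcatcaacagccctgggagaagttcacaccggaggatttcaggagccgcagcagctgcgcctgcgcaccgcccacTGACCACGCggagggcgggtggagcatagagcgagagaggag
The Gstm6 window is chr3:107953467-107953716, minus strand.
Gstm6: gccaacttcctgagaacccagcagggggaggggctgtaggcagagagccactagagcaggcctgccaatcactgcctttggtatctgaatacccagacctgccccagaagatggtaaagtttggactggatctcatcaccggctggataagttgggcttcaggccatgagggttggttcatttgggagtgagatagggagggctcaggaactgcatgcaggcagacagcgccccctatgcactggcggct
The Sult1a1 window is chr7:126676419-126676668, minus strand.
Sult1a1: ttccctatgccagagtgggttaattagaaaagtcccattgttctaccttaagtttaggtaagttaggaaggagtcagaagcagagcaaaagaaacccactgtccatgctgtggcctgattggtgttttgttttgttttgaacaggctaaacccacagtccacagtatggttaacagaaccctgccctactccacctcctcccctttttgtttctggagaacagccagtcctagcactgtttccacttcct
The Cyp2s1 window is chr7:25816526-25816775, minus strand.
Cyp2s1: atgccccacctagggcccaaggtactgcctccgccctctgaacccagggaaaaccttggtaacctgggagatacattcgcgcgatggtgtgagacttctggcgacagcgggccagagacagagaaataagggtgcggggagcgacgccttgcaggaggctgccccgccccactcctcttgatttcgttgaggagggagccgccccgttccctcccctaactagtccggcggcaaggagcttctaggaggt
The Cyp4f14 window is chr17:32917357-32917606, minus strand.
Cyp4f14: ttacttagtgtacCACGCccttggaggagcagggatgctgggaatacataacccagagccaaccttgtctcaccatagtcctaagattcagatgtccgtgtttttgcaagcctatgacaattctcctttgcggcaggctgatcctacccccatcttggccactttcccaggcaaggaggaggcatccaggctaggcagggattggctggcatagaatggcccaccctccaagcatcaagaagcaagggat

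Only Gstm5 and Cyp4f14 held a match among these 7 windows. In Gstm5 the AhR core occurred 171 and 38 bases before the start, the nearer match inside an antioxidant response element core that begins 42 bases before the start. In Cyp4f14 the AhR core began 237 bases before the start. Of 78 members with a window, 11 held GCGTG (14.1%, against 28.3% of 27025 genes), 3 held TGACNNNGC (3.85% against 10.1%) and 13 held AGGTCA (16.7% against 13.8%). Of the 7 Gstm windows, 2 held GCGTG, 1 held TGACNNNGC and 0 held AGGTCA. A match is a run of letters and not a bound site.

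At day 7 in the arrays labelled Card9-/-, the falls covered every family. Of 98 members 33 fell and 2 rose relative to day 0, and over all genes tested 12.7% fell and 6.93% rose (limma, adjusted p under 0.05, 19.7% in either direction). The median log2 difference was -0.44 over the members and -0.08 over all genes, and 73 of 98 members were lower. In the same comparison all 8 macrophage, all 8 fibroblast and all 5 red blood cell markers rose (medians 2.83, 1.96 and 4.13), as did 8 of 9 neutrophil markers, and the part of these cells in the members' levels was not tested. By family, 7 of 18 Gst, 4 of 10 Sult, 6 of 16 Ces, 10 of 37 Cyp2, 1 of 4 Cyp3a and 5 of 13 Cyp4 genes fell, and Sult5a1 and Cyp4f18 rose. Within slide 1 the members' median difference was -0.54 (1 array against 1) and within slide 4 it was -0.88 (1 array against 2), against -0.12 and -0.17 over all genes.

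**Figure D1:**
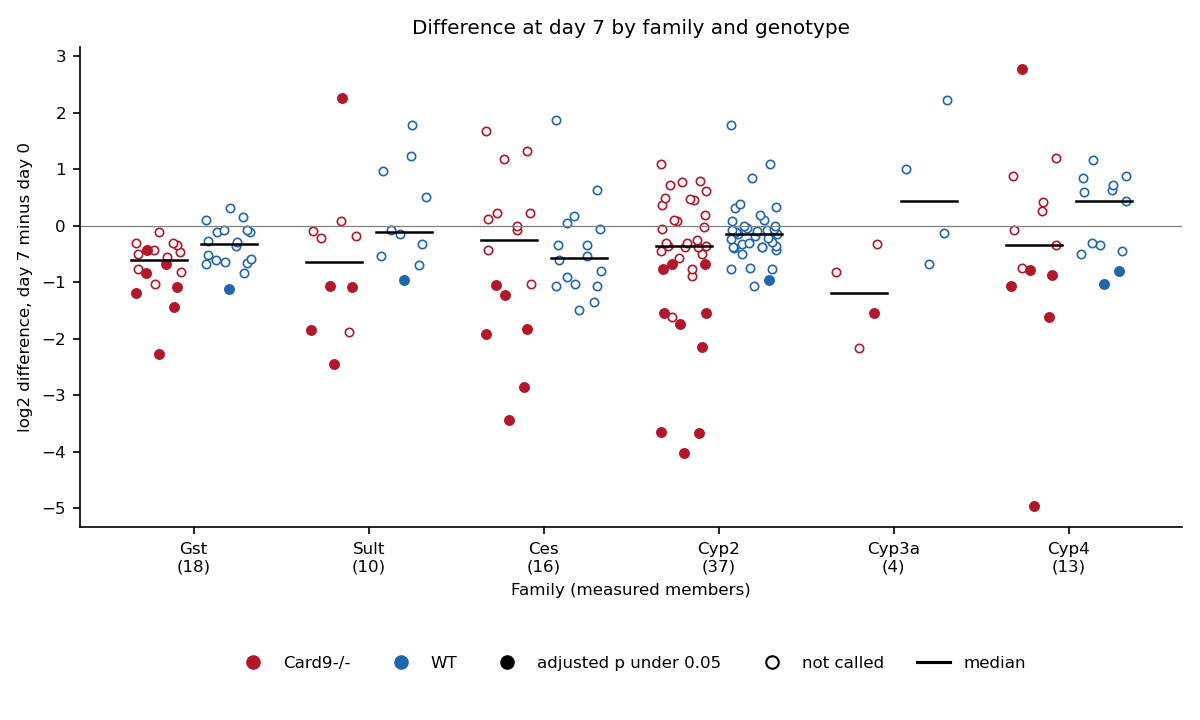
Each point is a measured member, placed by family (horizontal axis, number of members in brackets) and by its log2 difference at day 7 minus day 0 (vertical axis), for arrays labelled Card9-/- (red, left) and WT (blue, right); filled points passed an adjusted p under 0.05 and black lines are medians. All 18 Gst genes lie below 0 in the arrays labelled Card9-/-, and 15 of 18 do in WT.

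The number of calls moved with the day 0 arrays labelled Card9-/-. Without the 4 arrays of high proximal colon mean, which leaves 1 such array at day 0 that is assumed to vary like the other groups, 6 of the 33 falls remained called, namely Sult1a1, Gstm3, Gstm6, Sult1d1, Cyp2s1 and Ces1f, and 3.7% of all genes were called. Several lost calls kept their size there, among them Gstm1 (-1.67), Gstm4 (-1.38), Gstm7 (-1.27), Sult2b1 (-1.03), Cyp4f14 (-1.54) and Cyp4f16 (-1.04). With the proximal colon mean as a covariate 30 members and 16% of all genes were called, and without replicate 1 labelled Card9-/- at day 0 there were 21 and 12.7%.

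Among glutathione transferases, which join glutathione to reactive compounds, the mu class held 6 of the 7 falls. Gstm3 had levels of 2.47, 1.51, 1.33 and 1.64 at day 7 in the arrays labelled Card9-/-, against 3.97, 4.05 and 3.99 at day 0. All 4 day 7 values lay below the day 0 values, and the difference was -2.27 ± 0.28 (SE, 4.81-fold lower, adjusted p = 2.75e-05). A second Gstm3 probe gave -1.37. Gstm6 was 1, 0.43, 0.93 and 0.45 at day 7, against 1.57, 1.67 and 2.13 at day 0, with no overlap (-1.09 ± 0.23, adjusted p = 0.00199). Gstm4 was 0.31, -0.26, -0.30 and -0.20 at day 7, against 0.93, 1.03 and 1.27 at day 0 (-1.18 ± 0.25, adjusted p = 0.00200).

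Of the 7 Gstm genes, 6 passed the test in this comparison. Gstm1 fell by 1.43 ± 0.32 on the log2 scale (adjusted p = 0.00313), Gstm7 by 0.84 ± 0.29 (adjusted p = 0.0449) and Gstm5 by 0.43 ± 0.13 (adjusted p = 0.0232). Gstm2 alone did not pass on the probe used, with levels of 4.71, 4.64, 5.20 and 4.33 at day 7, against 4.88, 5.31 and 5.62 at day 0. With every probe fitted on its own, another Gstm2 probe did pass (-0.63, limma adjusted p = 0.0361) and a further one did not (-0.53). Gstm5 was 2.27, 2.12, 2.10 and 2.00 at day 7, against 2.28, 2.64 and 2.74 at day 0, so that the groups came within 0.01 of each other. Of the other 11 Gst genes only the theta class Gstt3 was called, at -0.67 ± 0.17 (adjusted p = 0.00901). The Gstm genes are close relatives, the deposited position of the Gstm1 probe is on chromosome 5 (mm9) although the gene is on chromosome 3, and cross-hybridisation between them was not tested.

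**Figure D2:**
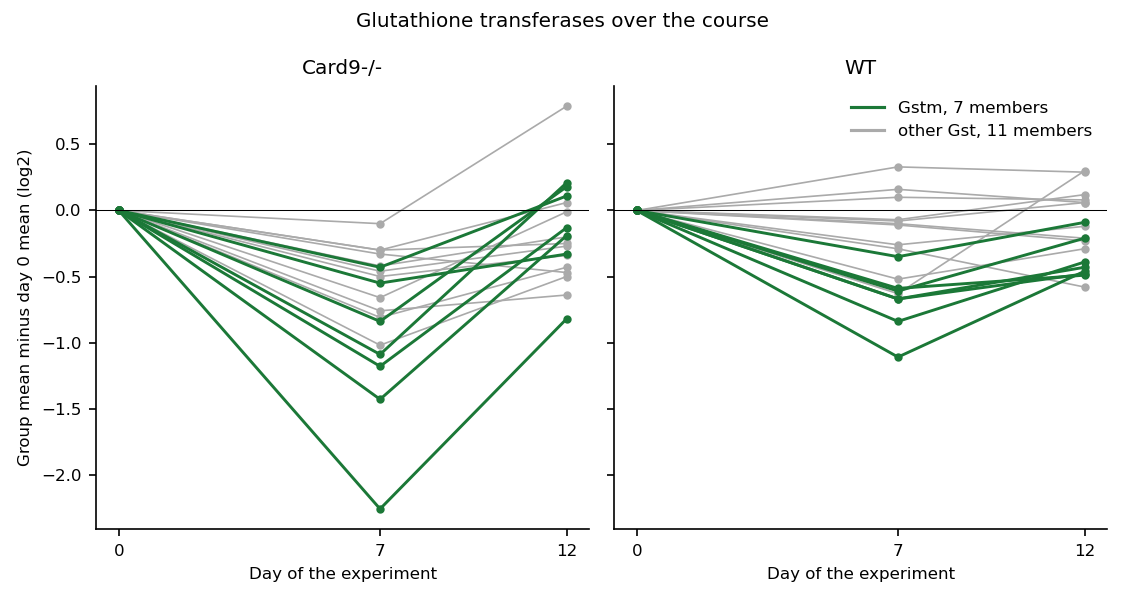
Lines give the group mean of each of the 18 Gst genes at day 0, 7 and 12 minus its own day 0 mean (log2, vertical axis), with arrays labelled Card9-/- on the left and WT on the right; the 7 Gstm genes are green. All 7 Gstm lines are lower at day 7 than at day 0 in both genotypes, and the lowest point is Gstm3 in the arrays labelled Card9-/-.

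Sulfotransferases transfer sulfate to phenols, amines and sterols. Sult1a1, the phenol sulfotransferase, was 3.96, 4.28, 4.55 and 4.33 at day 7 in the arrays labelled Card9-/-, against 6.64, 6.79 and 6.73 at day 0. The gap between the groups was wide, and the difference was -2.44 ± 0.28 (5.43-fold lower, adjusted p = 1.17e-05). Within slides 1 and 4 it was -2.31 and -2.80. Sult1d1, which sulfates catecholamines, was 1.84, 2.34, 2.32 and 2.09 at day 7, against 4.35, 3.98 and 3.62 at day 0 (-1.84 ± 0.27, adjusted p = 0.000110). Sult2b1, which sulfates cholesterol, was 2.45, 2.77, 2.97 and 2.85 at day 7, against 3.55, 4.14 and 3.79 at day 0 (-1.06 ± 0.21, adjusted p = 0.00120). None of these groups overlapped, and Sult1c2 fell as well (-1.09 ± 0.27, adjusted p = 0.00673). Sult1b1 did not pass the test, at 5.02, 5.42, 6.00 and 5.42 on day 7 and 5.62, 5.64 and 5.79 on day 0. Sult5a1 rose at least 3.58-fold (adjusted p = 0.0177), with 0 of 3 day 0 arrays well above background. Its levels were -4.13, -3.23, -0.99 and -2.86 at day 7, against -5.23, -5.39 and -4.56 at day 0. The gene thus passed the filter through other groups. With the proximal colon mean as a covariate the difference was 2.04 and not called (limma adjusted p = 0.0593). Without the arrays of high proximal colon mean, which leaves 1 array at day 0, it was 1.76. The call was also lost with another background correction (0.82) and without the arrays of high acinar mean (1.56). It was kept with slide or replicate as a block, with the epithelium or adipose mean and in the series table.

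The carboxylesterases hydrolyse esters of drugs and lipids. Ces1f was 1.44, 0.05, 0.14 and 1.35 at day 7 in the arrays labelled Card9-/-, against 4.77, 4.60 and 3.18 at day 0 (-3.44 ± 0.67, 10.8-fold lower, adjusted p = 0.00111). The day 0 value of 3.18 belongs to replicate 3, which lacked the high proximal colon mean, and it still lay above all day 7 values. Ces1e was -0.84, 0.17, 0.65 and -1.25 at day 7, against 1.67, 1.62 and 1.49 at day 0 (-1.91 ± 0.53, adjusted p = 0.0144). Ces1d fell by 1.82 ± 0.46 (adjusted p = 0.00722) and Ces1g by 2.86 ± 0.95 (adjusted p = 0.0379). Of the Ces2 genes, the main intestinal carboxylesterases, Ces2b (-1.22 ± 0.39) and Ces2c (-1.05 ± 0.33) were called with overlapping groups. Ces1g was -2, -2.64, -1.28 and -1.21 at day 7, against 2.34, 1.54 and -0.65 at day 0. Ces1a, Ces1b and Ces1c were dim on most arrays.

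The falls of Cyp2c55, Cyp2c65, Cyp2c66 and Cyp4b1 were the largest in size, and their day 0 arrays disagreed. Cyp2c55, which oxidises arachidonic acid, was 2.27, -0.29, 2.76 and 2.52 at day 7, against 6.71, 6.64 and 4.15 at day 0 (-4.02 ± 0.89, 16.2-fold lower, adjusted p = 0.00313). Cyp4b1, which oxidises fatty acids and aromatic compounds, was -3.65, -3.93, -2.46 and -2.30 at day 7, against 3.90, 2.90 and -1.19 at day 0 (-4.95 ± 1.31, adjusted p = 0.0103). In each of these genes replicate 3 at day 0 lay far below replicates 1 and 2. Cyp2c65 (-3.66 ± 0.94, adjusted p = 0.00882) and Cyp2c66 (-3.65 ± 0.92, adjusted p = 0.00781) showed the same split. Without the 4 arrays of high proximal colon mean the differences were -1.89 for Cyp4b1, -2.33 for Cyp2c55 and -1.74 for both Cyp2c65 and Cyp2c66, and none of these 4 was called (adjusted p = 0.222 to 0.396). The same held for Ces1g, at -1.14 (adjusted p = 0.487), and for Cyp2d26, at -1.13 against -2.14 ± 0.52 over all arrays.

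**Figure D3:**
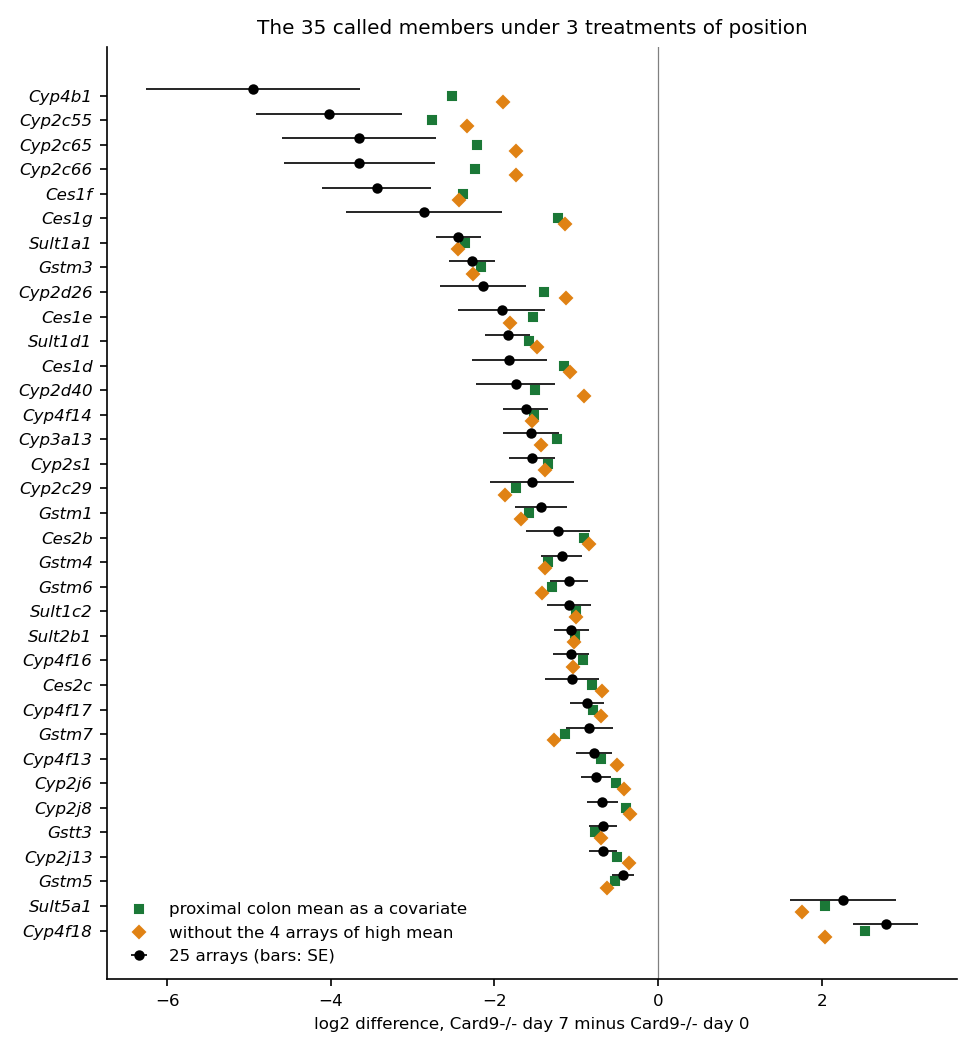
Each line across is a member that changed between day 0 and day 7 where arrays are labelled Card9-/-, with its log2 difference (horizontal axis) in the fit of 25 arrays (black, SE bars), with the proximal colon mean as a covariate (green) and without the 4 arrays of high proximal colon mean (orange). The marks of Cyp4b1, Cyp2c55, Cyp2c65, Cyp2c66 and Ces1g move towards 0, and those of Sult1a1 (-2.44, -2.36 and -2.45) and Gstm3 (-2.27, -2.16 and -2.26) do not.

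Cyp2s1, Cyp4f14 and Cyp3a13 fell without such a split. Cyp2s1, an epithelial P450, was 4.17, 4.11, 4.49 and 4.25 at day 7 in the arrays labelled Card9-/-, against 5.91, 5.84 and 5.64 at day 0 (-1.54 ± 0.28, adjusted p = 0.000579). Cyp4f14, which hydroxylates vitamin E and leukotriene B4, was 3.39, 3.25, 4.09 and 3.82 at day 7, against 5.12, 5.48 and 5.18 at day 0 (-1.62 ± 0.27, adjusted p = 0.000354). Cyp3a13, the main intestinal Cyp3a gene of the mouse, was 2.00, 2.50, 3.60 and 2.63 at day 7, against 4.17, 4.43 and 4.11 at day 0 (-1.55 ± 0.34, adjusted p = 0.00258). No day 7 value of these 3 genes reached a day 0 value. Cyp4f16 (-1.06 ± 0.22), Cyp4f17 (-0.87 ± 0.21), Cyp4f13 (-0.78 ± 0.22) and Cyp2j6 (-0.76 ± 0.18) were also called, as were Cyp2j8 (-0.68 ± 0.19), Cyp2j13 (-0.67 ± 0.17), Cyp2c29 (-1.54 ± 0.51) and Cyp2d40 (-1.74 ± 0.48). In Cyp2j6, Cyp2j8, Cyp2j13 and Cyp2d40 replicate 3 was the lowest day 0 array, and without the 4 arrays of high proximal colon mean their differences were -0.42, -0.34, -0.36 and -0.91, none of them called. Cyp2c44, now named Cyp2c23, was not called at day 7, with -3.83, -2.10, -1.55 and -2.50 against -3.61, -3.75 and -2.29 at day 0. Cyp3a11, Cyp3a16 and Cyp3a44 did not pass, and the probes of Cyp3a16 and Cyp3a44 were dim on most arrays.

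Cyp4f18, the leukotriene B4 hydroxylase of mouse neutrophils, moved the other way. It was 1.58, 1.61, 1.62 and 1.59 at day 7 in the arrays labelled Card9-/-, against -1.69, -1.41 and -0.44 at day 0 (2.78 ± 0.40, 6.87-fold higher, adjusted p = 8.17e-05). A second probe gave 2.37. With the proximal colon mean as a covariate the difference was 2.53 (limma adjusted p = 0.000644). Without the 4 arrays of high proximal colon mean it was 2.04, and the 1 day 0 array left there is that of -0.44. All 9 neutrophil markers measured were higher in the same comparison and 8 were called, against 6.93% of all genes, with a median of 6.20. Their mean relative to WT day 0 was 5.4 to 6.09 at day 7 and -0.71 to 0.13 at day 0. Of the 9, 6 were not well above background on any day 0 array labelled Card9-/-, and 4 on any WT day 0 array. The sizes given for these markers therefore rest partly on levels near background. The part of neutrophils in the Cyp4f18 level was not tested.

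**Figure D4:**
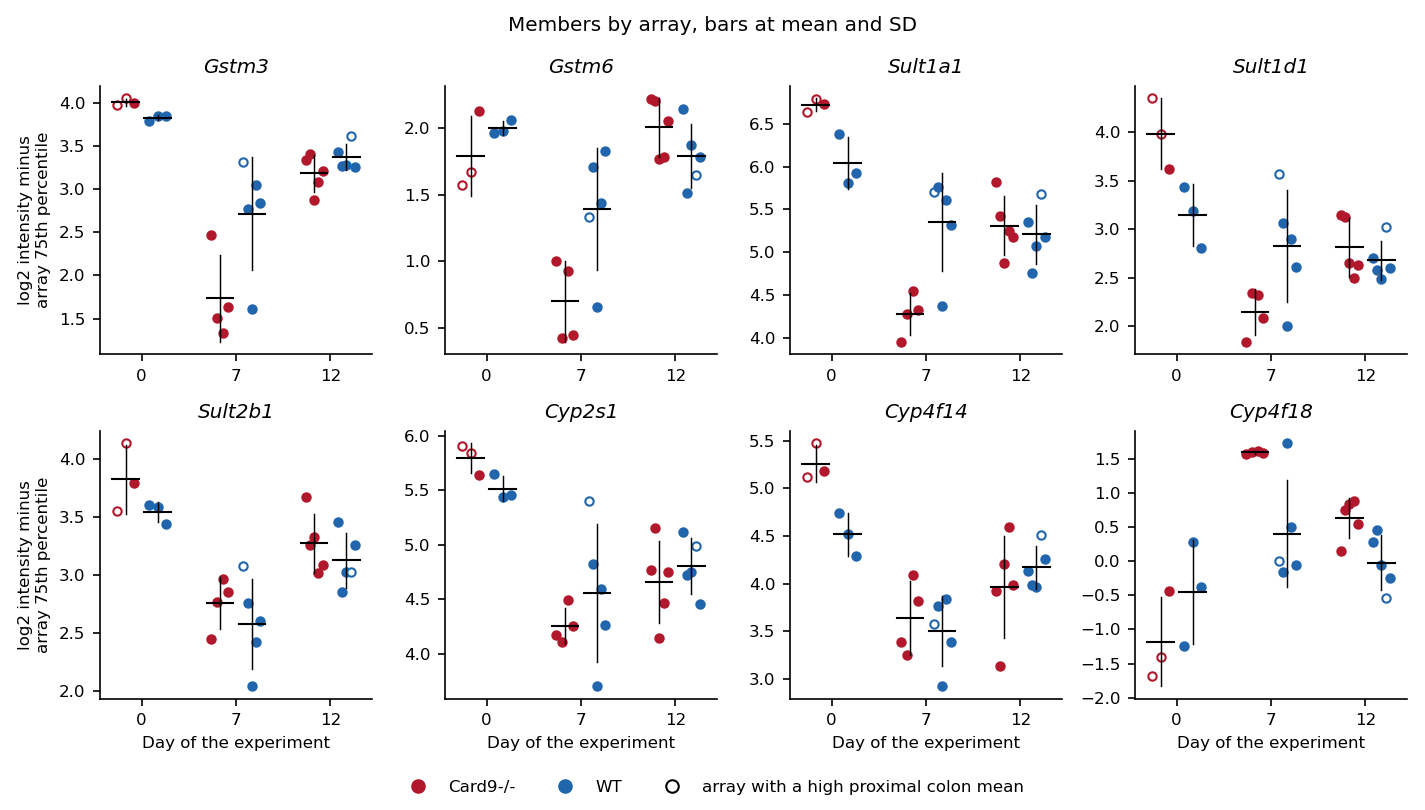
Points are arrays at day 0, 7 and 12 (horizontal axis), labelled Card9-/- (red, left) or WT (blue, right), with the level of 8 members (log2 intensity minus the array's 75th percentile, vertical axis), bars at the mean and SD, and open circles for the 4 arrays of high proximal colon mean. Sult1a1 at day 7 is 3.96 to 4.55 in the arrays labelled Card9-/- and 4.38 to 5.76 in WT, and WT replicate 3 is the lowest WT point at day 7 in Gstm3, Gstm6, Sult1a1 and Sult1d1.

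In WT mice 5 of 98 members fell at day 7 and 0 rose, and over all genes 2.33% fell and 2.02% rose (4.35% in either direction). The members' median difference was -0.22 and that of all genes 0.03. Sult2b1 was 3.08, 2.76, 2.04, 2.42 and 2.60 at day 7, against 3.60, 3.59 and 3.44 at day 0 (-0.96 ± 0.20, adjusted p = 0.00871). Gstm3 was 3.31, 2.77, 1.61, 3.05 and 2.84 at day 7, against 3.79, 3.84 and 3.84 at day 0 (-1.11 ± 0.27, adjusted p = 0.0225). Cyp4f14 was 3.58, 3.77, 2.92, 3.84 and 3.39 at day 7, against 4.74, 4.52 and 4.29 at day 0 (-1.02 ± 0.26, adjusted p = 0.0290). In each of the 3 genes the WT groups did not overlap, and replicate 3 was lowest at day 7. Cyp4f16 (-0.80 ± 0.21, adjusted p = 0.0335) and Cyp2s1 (-0.96 ± 0.26, adjusted p = 0.0418) made up the 5.

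All 7 Gstm genes had negative differences in WT with an unadjusted p under 0.05, and only Gstm3 was called. Such a p, in either direction, was found for 23 of 98 members and 4333 of 25447 genes. Sult1a1 was 5.70, 5.76, 4.38, 5.61 and 5.32 at day 7, against 6.38, 5.81 and 5.93 at day 0, and was not called. The WT count depended on WT day 7 replicate 1, the array of high proximal colon mean. Without it 9 members fell, against 3.34% of all genes in that fit, the 5 above with Ces1e (-1.90 ± 0.44), Ces1f (-1.71 ± 0.47), Cyp3a13 (-0.94 ± 0.27) and Gsta4 (-0.96 ± 0.20). Leaving out any of the 3 WT day 0 arrays left 1 call. The share of all genes in those fits is not given here, so that count alone is no result about the members. The fit of the WT day 0 and day 7 groups alone gave 0 calls (0.149% of all genes). The members' median within slides 1, 2 and 3 was -0.60, -0.33 and 0.07, against -0.04, -0.03 and 0.20 over all genes.

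Between genotypes at day 7, 1 of 98 members was called, against 0.55% of all genes. Sult1a1 was 3.96, 4.28, 4.55 and 4.33 in the arrays labelled Card9-/-, against 5.70, 5.76, 4.38, 5.61 and 5.32 in WT, a difference of -1.08 ± 0.24 (2.11-fold lower, adjusted p = 0.0485). The groups overlapped through WT replicate 3 alone. Within slides 1 to 4 the difference was -1.28, -0.79, -0.77 and -1.74. The call was kept under 7 of 14 other settings and lost when any of 22 of the 25 arrays was left out, with adjusted p between 0.00108 and 0.667 over all of these. Gstm3 differed by -0.98 ± 0.25 (adjusted p = 0.0663), Gstm6 by -0.69 ± 0.20 (adjusted p = 0.0973) and Gstm4 by -0.72 ± 0.22 (adjusted p = 0.107), and these did not pass.

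WT day 7 replicate 3 decided most of that count. Without it 10 members were called at day 7 between genotypes, 9 lower and 1 higher in the arrays labelled Card9-/-. In that fit 8.93% of all genes were called, 5.75% lower and 3.18% higher, so that the members' count lay near the share of all genes. The lower genes were Gstm1, Gstm3, Gstm4, Gstm6, Gstt3, Sult1a1, Sult1d1, Cyp2j6 and Cyp2j13, with Gstm3 at -1.26 ± 0.18 (adjusted p = 0.000846) and Sult1a1 at -1.32 ± 0.20 (adjusted p = 0.00108), and Cyp4f18 was higher (1.52 ± 0.29, adjusted p = 0.00525). The neutrophil marker mean relative to WT day 0 was 5.4 to 6.09 in the arrays labelled Card9-/- at day 7, against 5.69 in WT replicate 3 and 2.43 to 4.45 in the other WT arrays of day 7. The part of that difference in the members' levels was not tested.

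The change at day 7 did not differ between genotypes for any member after adjustment (limma interaction, called for 0.00393% of all genes). An unadjusted p under 0.05 was found for 18 of 98 members and for 2947 of 25447 genes. The difference of changes was -1.75 ± 0.38 for Sult1a1 (adjusted p = 0.201) and -1.52 ± 0.38 for Sult1d1 (adjusted p = 0.221). Without WT day 7 replicate 3 there were 6 calls, and 2.07% of all genes were called, with Sult1a1 (-2 ± 0.30), Sult1d1 (-1.72 ± 0.32), Gstm3 (-1.43 ± 0.28), Cyp2j6, Cyp2j13 and, in the other direction, Cyp4f18 (2.26 ± 0.45). At day 0 between genotypes 0 members were called (0.00393% of all genes). An unadjusted p under 0.05 was found there for 14 of 98 members and for 1266 of 25447 genes. At day 12 between genotypes 0 members were called (0.0707% of all genes, 0.0196% higher and 0.0511% lower). There 9 of 98 members and 2253 of 25447 genes had an unadjusted p under 0.05. The smallest p at day 12 was that of Cyp2c44, at -2.64, -2.02, -3.08, -4.20 and -3.35 in the arrays labelled Card9-/-, against -4.31, -4.41, -4.46, -4.77 and -4.61 in WT, where 0 of 5 arrays were well above background (at least 2.52-fold higher, adjusted p = 0.226, not called). The smallest p at day 0 was that of Cyp4f40, at 0.15, -0.19 and -0.63 in the arrays labelled Card9-/-, against -1, -0.82 and -1.09 in WT (0.75 ± 0.22, adjusted p = 0.648).

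During recovery the Gstm genes rose in the arrays labelled Card9-/-. Relative to day 7, 11 of 98 members were higher at day 12 and 0 were lower, against 5.74% and 1.97% of all genes (7.71% in either direction). Of the 11, 6 were Gstm genes, all but Gstm2, and the others were Gstt3, Sult1a1, Cyp2c29, Cyp2c54 and Cyp4f16. The members' median was 0.28 and that of all genes 0.02. Within slides 1, 2, 3 and 4 it was 0.32, 0.40, -0.06 and 0.30.

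Gstm6 was 2.22, 2.20, 1.77, 1.78 and 2.05 at day 12 in the arrays labelled Card9-/-, against 1, 0.43, 0.93 and 0.45 at day 7 (1.30 ± 0.20, 2.47-fold higher, adjusted p = 0.00137). Gstm3 was 3.33, 3.41, 2.87, 3.08 and 3.21 at day 12, against 2.47, 1.51, 1.33 and 1.64 at day 7 (1.45 ± 0.25, adjusted p = 0.00254). Gstm4 was 0.90, 1.11, 0.81, 0.80 and 1.09 at day 12, against 0.31, -0.26, -0.30 and -0.20 at day 7 (1.05 ± 0.22, adjusted p = 0.00758). On the probes used, the day 12 values of these 3 genes all lay above the day 7 values. A second Gstm4 probe rose by 0.33 only and was not called (limma adjusted p = 0.288). Other probes gave 1 for Gstm3, and 1.32 and 1.18 for Gstm6. Gstm5 rose by 0.54 ± 0.11 (adjusted p = 0.00854), Gstm1 by 1.24 ± 0.28 (adjusted p = 0.0114) and Gstm7 by 1.02 ± 0.25 (adjusted p = 0.0182). Sult1a1 was 5.82, 5.43, 4.88, 5.25 and 5.18 at day 12, against 3.96, 4.28, 4.55 and 4.33 at day 7 (1.03 ± 0.24, adjusted p = 0.0143). The largest rises were those of Cyp2c54 (1.95 ± 0.60, adjusted p = 0.0498) and Cyp2c29 (1.55 ± 0.45, adjusted p = 0.0383), and in both the groups overlapped through replicate 3 at day 7.

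Of the arrays in this comparison 3 carried high acinar means, 2 of them at day 7. Without all arrays of high acinar mean, Gstm6 (1.22, adjusted p = 0.0450) was the 1 member still called, with 0.979% of all genes. Gstm3 then differed by 1.09 (adjusted p = 0.103), Gstm1 by 0.96 (adjusted p = 0.212) and Sult1a1 by 1.04 (adjusted p = 0.111). That setting leaves 2 arrays at day 7 and 4 at day 12 in these groups. Leaving out a single array gave 7 to 16 calls, with 7 without replicate 2 or without replicate 4 labelled Card9-/- at day 7. As the share of all genes in those fits is not given here, these counts alone are no result about the members.

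In WT no member was called at day 12 against day 7, and of all genes 0.365% were higher and 0.122% lower (0.487% called). An unadjusted limma p under 0.05 was found for 13 of 98 members and for 3344 of 25447 genes. Gstm3 in WT was 3.43, 3.27, 3.28, 3.61 and 3.26 at day 12, against 3.31, 2.77, 1.61, 3.05 and 2.84 at day 7. The change from day 7 to day 12 did not differ between genotypes for any member after adjustment (0.00786% of all genes called). There 14 of 98 members and 1964 of 25447 genes had an unadjusted limma p under 0.05. Without WT day 7 replicate 3, Gstm1 (1.32 ± 0.26), Gstm4 (1.12 ± 0.21) and Sult1a1 (1.42 ± 0.27) were called as having risen more in the arrays labelled Card9-/-, with 0.259% of all genes called.

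Some members were still lower at day 12. In the arrays labelled Card9-/- 12 members were lower and 1 was higher than at day 0, against 3.26% and 3.71% of all genes (6.97% in either direction). Sult1a1 was 5.82, 5.43, 4.88, 5.25 and 5.18 at day 12, against 6.64, 6.79 and 6.73 at day 0 (-1.41 ± 0.27, adjusted p = 0.00331). Cyp4f14 was 3.92, 3.13, 4.21, 4.59 and 3.99 at day 12, against 5.12, 5.48 and 5.18 at day 0 (-1.30 ± 0.26, adjusted p = 0.00520). Cyp4f18 was 0.15, 0.76, 0.84, 0.88 and 0.55 at day 12, against -1.69, -1.41 and -0.44 at day 0 (1.82 ± 0.38, adjusted p = 0.00648). In none of the 3 did the groups overlap. Sult1d1 (-1.17 ± 0.26), Cyp2s1 (-1.14 ± 0.26) and Ces1f (-2.47 ± 0.64) were also lower, as were Ces1d (-1.67), Ces1g (-3.66 ± 0.91), Cyp3a13, Cyp2j9, Cyp2d26 (-1.81), Cyp4b1 (-4.59 ± 1.25) and the omega class Gsto1 (-0.47 ± 0.13). No Gstm gene was called at day 12 against day 0.

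The number of these calls moved with the day 0 arrays. With the proximal colon mean as a covariate Sult1a1 was the 1 member still called (-1.30, adjusted p = 0.0492; 1.29% of all genes), and without the 4 arrays of high mean, which leaves 1 array at day 0, there were 0 calls (0.566% of all genes). With the covariate Cyp4f14 (-1.15), Gsto1 (-0.45) and Cyp4f18 (1.47) kept most of their size, whereas Cyp4b1 was at -1.21, Ces1g at -1.38 and Ces1f at -1.01. Without replicate 1 or without replicate 2 labelled Card9-/- at day 0, 2 members were called. That count has no share of all genes beside it here and alone is no result about the members. In WT 0 members were called at day 12 against day 0, and of all genes 1.13% were higher and 0.601% lower (1.73% called). An unadjusted limma p under 0.05 was found for 8 of 98 members and for 3392 of 25447 genes. Sult1a1 in WT was 5.36, 4.76, 5.07, 5.68 and 5.18 at day 12, against 6.38, 5.81 and 5.93 at day 0, with no overlap and no call.

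As a measure of colon position, the slope of a level on the proximal colon marker mean was taken within the 6 groups. Of 7 distal colon markers, Insl5 (-1.03), Hoxb13 (-0.90) and Hoxa13 (-0.47) had called negative slopes. The others, Hoxd10 (0.61), Hoxd11, Hoxd12 and Hoxd13, had no called slope. Of 98 members 15 rose and 1 fell with that mean, 16.3% in all, against 3.36% of all genes. Cyp4b1 had the steepest slope, 1.81 ± 0.17 log2 units per unit of the marker mean (adjusted p = 4.99e-06). In the 3 arrays with the highest means it was 3.90, 2.90 and 2.82, and in the others -5.86 to -1.19. Ces1g followed at 1.22 ± 0.16 (adjusted p = 0.000295) and was 2.34, 1.54 and 1.99 in those 3 arrays, against -3.41 to -0.39 in the others. Cyp2e1, the ethanol-oxidising P450, had a slope of 1.12 ± 0.21, Cyp2c65 of 1.08 ± 0.20, Cyp2c66 of 1.05 ± 0.20 and Cyp2c55 of 0.94 ± 0.21.

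Smaller slopes were called for the carboxylesterases Ces1f (0.78 ± 0.14) and Ces1d (0.50 ± 0.10), for the Cyp2 genes Cyp2d26 (0.55 ± 0.12), Cyp2j9 (0.32 ± 0.06), Cyp2j8 (0.22 ± 0.04) and Cyp2j6 (0.19 ± 0.05), and for the transferases Gsta2 (0.50 ± 0.11), Gsta4 (0.43 ± 0.09) and Gstk1 (0.19 ± 0.04). Cyp2t4 fell with the marker mean (-0.48 ± 0.08). None of the 10 Sult genes and none of the 7 Gstm genes was called. Adipose markers moved with the same mean, 9 of 11 with a called positive slope, and with the adipose mean as a covariate Cyp4b1 was the 1 member still called (1.31 ± 0.24, adjusted p = 0.0370), with 0.181% of all genes. Without WT day 7 replicate 1, Cyp4b1 (1.49 ± 0.19) and Ces1g (0.90 ± 0.19) were called, with 0.629% of all genes. The small intestine markers Slc10a2 (1.36) and Sis (1.46) also had called slopes over all arrays, as had the smooth muscle markers Myh11 (0.53) and Synm (0.46). The other markers of these lists had none. What part of the members' slopes reflects position alone was not tested.

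**Figure D5:**
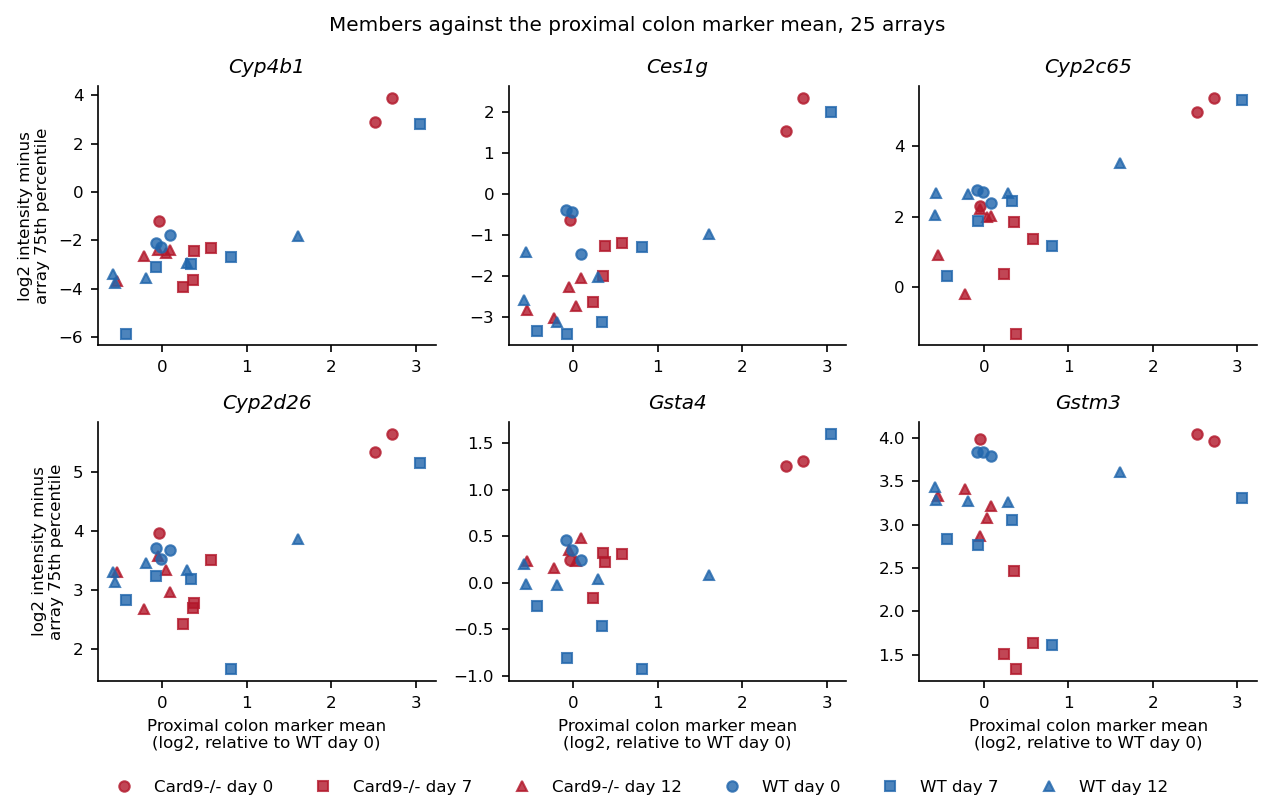
Each point is an array, with the mean of 11 proximal colon markers relative to WT day 0 (log2, horizontal axis) and the level of a member (log2 intensity minus the array's 75th percentile, vertical axis); red marks arrays labelled Card9-/-, blue WT, and circles, squares and triangles day 0, 7 and 12. Cyp4b1, Ces1g, Cyp2c65, Cyp2d26 and Gsta4 are highest in the 3 arrays of highest mean, and Gstm3, which had no called slope, is not.

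Genes that supply or continue these reactions were followed in lists. Of 16 other conjugation genes 10 fell and 0 rose by day 7 where arrays are labelled Card9-/-, with a median of -0.94. Over all genes 12.7% fell and 6.93% rose. Papss1, which makes the sulfate donor of the sulfotransferases, fell by 1.5 ± 0.21 (adjusted p = 7.80e-05), and Ugt2b35, a glucuronosyltransferase, by 2.55 ± 0.33 (adjusted p = 3.89e-05). In WT 2 of the 16 fell, against 2.33% of all genes, namely Papss1 (-0.81 ± 0.20, adjusted p = 0.0262) and Ugt2b35 (-1.65 ± 0.32, adjusted p = 0.00547). Where arrays are labelled Card9-/-, 3 of the 16 rose at day 12 relative to day 7, against 5.74% of all genes. Among them Papss1 rose by 1.06 ± 0.19 (adjusted p = 0.00315) and Papss2 by 0.54 ± 0.15 (adjusted p = 0.0291). A list of 15 genes held glutathione supply, membrane-bound glutathione transferases and related genes such as Gstz1. They were mostly not called at day 7 in the arrays labelled Card9-/-, where 3 fell and 1 rose (26.7%, against 19.7% of all genes). Mgst2 fell by 0.60 ± 0.15 (adjusted p = 0.00705), and Slc7a11, which imports cystine for glutathione, rose at least 1.15-fold (adjusted p = 0.00781). In WT the single call of that list (6.67%, against 4.35% of all genes) was a rise of Mgst1 (0.72 ± 0.17, adjusted p = 0.0199).

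Of 24 other phase 1 genes 14 fell and 1 rose by day 7 where arrays are labelled Card9-/-, with a median of -0.61. Over all genes 12.7% fell and 6.93% rose, which also holds beside the regulators and export genes below. Ephx1, the microsomal epoxide hydrolase, fell by 0.73 ± 0.12 (adjusted p = 0.000275) and Aldh1a7, an aldehyde dehydrogenase, by 1.70 ± 0.28 (adjusted p = 0.000317), and in WT Ephx1 fell by 0.67 ± 0.11 and Aldh1a7 by 1.63 ± 0.27. Of 21 regulators 7 fell and 0 rose in the arrays labelled Card9-/-, led by Ppara, a fatty acid receptor (-2.28 ± 0.40, adjusted p = 0.000501), and Nfe2l2, which encodes Nrf2 (-0.81 ± 0.15, adjusted p = 0.000676). Ppara and Nfe2l2 also had called slopes on the proximal colon mean (0.43 and 0.15), as had 4 of 21 regulators in all. So had 5 of 24 phase 1 genes, 4 of 16 conjugation genes and 2 of 13 export genes, against 3.36% of all genes. Papss1, Ugt2b35, Ephx1 and Aldh1a7 had no called slope. In WT 1 regulator was called (4.76%, against 4.35% of all genes). This was the bile acid receptor gene Nr1h4, which rose by 0.67 ± 0.18 (adjusted p = 0.0329). Of 13 export genes 7 fell and 1 rose in the arrays labelled Card9-/-, with Abcg2, an efflux pump, at -0.93 ± 0.19 (adjusted p = 0.00142) and Slc22a18 at -0.70 ± 0.16 (adjusted p = 0.00301), and 0 of 13 were called in WT (Abcg2 -0.61 ± 0.18, adjusted p = 0.0575). Of 15 colon epithelium markers 4 fell in the arrays labelled Card9-/- with a median of -0.22, and with their mean as a covariate 31 members were called at day 7, 23 lower and 8 higher, against 10.3% and 7.57% of all genes in that fit.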

How the data were processed

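Colon RNA of 25 mice was measured on one-colour (Cy3) arrays, and the deposited per-array files hold processed intensity values from Agilent Feature Extraction 10.7.3.1, per the submitters' processing notes. The deposited series table holds log2 values of the same arrays, and how it was normalized is not stated in them. Here control spots were left out and spots of a probe averaged. Log2 processed intensity minus the 75th percentile of the array was used, and a probe was kept if well above background on at least 3 of 25 arrays. Of several kept probes of a gene, the one with the highest mean over all arrays was used. Levels of 25447 genes were fitted in limma 3.58.1 (R 4.3.3) on 6 groups, with Benjamini-Hochberg adjustment over all genes and a threshold of 0.05. The slope on the proximal colon mean came from the same groups with that mean added. The number of arrays limits the precision, and p-values measure the spread between mice of a group. Alternatives changed the background correction (normexp, offset 50), normalization, filter, blocks, covariates and arrays used. The fit was tested on simulated data. The members and lists were chosen with earlier results of these data known. Values are given for the 4 members of each family with the smallest p of the F test over the 6 groups, for the 6 largest called rises and falls of each comparison, and for the 2 genes of each other list with the smallest p. Members named beyond these (Gstm1, Gstm2, Gstm7, Sult1b1, Cyp4f40 and those gained or lost under an alternative among them) were chosen after their values were seen. Probe positions are mm9, per the file headers' annotation columns, and promoter windows are RefSeq GRCm38.p6.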

Additional observations from a re-analysis of the deposited data

Results flagged for a closer look

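In groups of 4 or 5 arrays, 10 of 124 pairs of a gene or family mean and a group held an array far from the others, where chance flags about 1 in 20. Ces1f was 4.31 in WT day 7 replicate 1, the array of highest proximal colon mean, against 0.57 to 1.65 in the other WT arrays of that day. Cyp2c55 was -0.29 in replicate 2 labelled Card9-/- at day 7, which had a high acinar mean, against 2.27 to 2.76 in the others. Gstm4 was 0.31 in replicate 1 labelled Card9-/- at day 7, against -0.30 to -0.20. Cyp2j6 was 0.69 in replicate 1 labelled Card9-/- at day 12, against 1.04 to 1.14, and Cyp4f16 was 1.25 in replicate 4 of that group, against 1.72 to 1.86. The mean of the Cyp2 genes relative to WT day 0 was -0.42 in the same replicate 4, against 0.07 to 0.24.

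WT day 12 replicate 5, which had a high acinar mean, stood apart for Cyp3a16 at -4.22 (-6.87 to -6.51 in the others), for the mean of the Cyp3a genes at 0.88 (-0.17 to -0.04) and for the mean of the Sult genes at 0.40 (-0.38 to -0.17). The mean of the Gst genes was 0.03 in WT day 12 replicate 1, against -0.26 to -0.20 in the others. The part of acinar RNA in these values was not tested.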

How the results depend on the processing

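Each call of a member was followed through each setting. Over settings of background correction, normalization, filter, probe, blocks, covariates or sets of arrays, 851 such pairs kept the call and 234 lost it. The setting with every probe fitted on its own took the probe of smallest adjusted p. With 1 array left out, 1827 pairs kept the call and 198 lost it. None of these reversed. Member counts are given as setting against the fit of 25 arrays. The share of all genes called also moved with the setting, where it is given above, so these counts alone are no result about the members. In the fit of 25 arrays that share was 19.7% and 4.35% at day 7 against day 0 (labelled Card9-/-, then WT). It was 7.71% at day 12 against day 7 labelled Card9-/-, 0.55% between genotypes at day 7 and 3.36% for the slope. For day 7 against day 0 labelled Card9-/- (35 members), the fit on its groups alone gave 18 and leaving out the arrays of high proximal mean 6. In WT (5) there were 3 without a filter on dim probes, 0 on its groups alone, 9 without the proximal arrays, 3 with the epithelium mean as a covariate and 9 with the adipose mean. For day 12 against day 7 labelled Card9-/- (11) there were 6 on its groups alone, 1 without the acinar arrays and 17 with the adipose mean, and in WT (0) there was 1 with the epithelium mean. For day 12 against day 0 labelled Card9-/- (13) there were 6 with slide as a block, 1 with the proximal mean, 0 without the proximal arrays and 6 with the adipose mean, and in WT (0) there were 1 in the series table and 2 on its groups alone. Between genotypes at day 7 (1) there were 0 without a filter, 2 at a filter of 13 arrays, 3 with slide as a block, 0 on its groups alone, 0 with the proximal mean, 0 without the proximal or the acinar arrays and 2 with the adipose mean. For the slope (16) there were 26 with quantile normalization, 26 with the epithelium mean and 1 with the adipose mean. Leaving out 1 array gave 21 to 39 and 1 to 9 calls at day 7 against day 0 (labelled Card9-/-, then WT), 7 to 16 at day 12 against day 7 labelled Card9-/-, 2 to 18 and 0 to 1 at day 12 against day 0, 0 to 10 between genotypes at day 7, 0 to 6 and 0 to 3 for the differences of change and of recovery, and 2 to 20 for the slope. The epithelium and adipose covariates were chosen after seeing the data, and the cause of these shifts was not tested.

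Replicate numbers are shared between groups. Deviations of same-numbered arrays from their group means had a mean r of 0.02 over 54 pairs (from -0.45 to 0.68). Over 204 pairs of different number the mean r was 0 (from -0.48 to 0.51). A mean near 0 cannot exclude shared handling of some pairs, which was not tested, and the arrays were fitted as unpaired. With the replicate block there were 3 calls in WT at day 7 against day 0, 0 between genotypes at day 7 and 9 for the slope. These counts too are given without the share of all genes and alone are no result about the members.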
